A study of Rattus norvegicus with 12 samples.

Results

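Kcnb2, Kcnc1, Kcnc2, Kcnc4, Kcns1 and Kcns2 are the members of the Kv2, Kv3 and Kv9 potassium channel families that are described here. They were taken by gene symbol, with no threshold on measured values, as a set put together with earlier results of these data known, and make up 6 of the 29009 genes in the table of RNA-seq counts from rat medial prefrontal cortex (mPFC). The libraries came from 12 adult male Sprague Dawley rats in 3 groups of 4. CPA+RO rats carried AAV8-mCaMKIIa-hM3D(Gq)_mCherry, which expresses a designer receptor (hM3Dq) in excitatory neurons under a CaMKIIa promoter, and received the oxytocin receptor agonist peptide RO6958375 (0.07 mg/kg subcutaneously, once daily for 7 days). CPA+veh rats carried the same virus and received vehicle for the same 7 days. Control+veh rats carried a virus with the fluorophore alone and received vehicle. All 12 rats, controls included, drank clozapine-N-oxide (CNO), the ligand of hM3Dq, at a calculated 2 mg/kg for 10 days before these 7 days of injections. CPA stands for chronic prefrontal activation. The tissue was dissected from brain slices after electrophysiology. By the paper's methods, rats were taken for slices on different days after the injections had ended. The labels do not give the day of each rat, so it could not be entered in any comparison. The rats belonged to 2 cohorts that the labels do not tie to libraries, so cohort could not be entered in any comparison.

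Voltage-gated potassium channels open upon depolarization and let potassium leave the cell, which ends the action potential. Kv2 channels, to which Kcnb2 (Kv2.2) belongs, open slowly and carry much of the delayed rectifier current of cortical pyramidal neurons during repetitive firing. Kv3 channels, to which Kcnc1 (Kv3.1), Kcnc2 (Kv3.2) and Kcnc4 (Kv3.4) belong, open only at strongly depolarized potentials and close fast. Kv3.1 and Kv3.2 let the parvalbumin-positive (Pvalb) interneurons of cortex fire at high rates. Kv3.4 inactivates rapidly, so that it gives an A-type rather than a delayed rectifier current. Kcns1 (Kv9.1) and Kcns2 (Kv9.2) form no channel on their own and alter Kv2 channels when they assemble with them. In mPFC tissue these messages come from excitatory neurons and interneurons at once, and fewer cells of a type cannot be told apart from less RNA per cell.

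All 6 genes were detected in all 12 libraries and passed the filter on low counts, as 19094 of the 29009 genes did. Their counts lay between 320 and 12157 per library. Library totals were 67837257 to 79006972 counts in CPA+RO, 64993543 to 74277096 in CPA+veh and 68084135 to 77291797 in control+veh, so that depth was close across groups. The level of rat Chrm3, the closest rat gene to the receptor from which hM3Dq was built, checked the labels. It averaged 171 ± 59.6 CPM (counts scaled to library size) in CPA+RO, 193 ± 92.5 CPM in CPA+veh, against 58.0 ± 5.04 CPM in control+veh (SD, 4 rats each). Each CPA library lay above each control library. The lowest CPA library, CPA+veh 1, was at 71.1 CPM, close to the highest control at 64.9 CPM. The difference from control+veh did not pass the edgeR test (adjusted p = 0.0762 for CPA+veh and 0.135 for CPA+RO). Excitatory cortical neuron markers were abundant, with a summed level of 3678 to 4192 CPM in CPA+RO, 3703 to 4473 CPM in CPA+veh and 3350 to 3798 CPM in control+veh over 5 genes. Markers of choroid plexus summed to at most 2.7 CPM over 6 genes in any library. Markers of striatal neurons, which the mPFC should hold few of, summed to 237 to 261 CPM in CPA+RO, 225 to 275 CPM in CPA+veh and 229 to 269 CPM in control+veh.

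Libraries 1 and 2 of CPA+veh stood apart from the rest in earlier results of these data. The rank correlation of gene length with a gene's deviation from its mean over the 12 libraries was -0.193 in CPA+veh 1 and -0.391 in CPA+veh 2, so that long genes were low there. It was -0.195 in control+veh 1 and between 0.001 and 0.205 in the other 9 libraries. Their 5 oligodendrocyte markers had a median of 0.60 and 0.35 above the control mean on the log2 scale, and their 6 endothelial markers a median of -0.66 and -0.72. In CPA+veh 3 and 4 these medians were 0.092 and 0.023 for oligodendrocytes and -0.15 and -3.6e-05 for endothelium. Fold changes of the 6 genes, marker medians and correlations are therefore also given without CPA+veh 1 and 2, which leaves only CPA+veh 3 and 4 in that group.

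Of the 6 genes, 4 were matched to a RefSeq promoter window of build GRCr8, 250 bases before to 50 after a start site. These were Kcnc1, Kcnc2, Kcnc4 and Kcns1. Kcnb2 and Kcns2 had no entry. The windows of Kcnc1 and Kcns1 are shown because they had the highest GC content of the 4, at 74% and 69%, against 62.3% for Kcnc4, 56% for Kcnc2 and a median of 51.7% over 33469 rat promoters. The bases that lie outside the annotated gene are printed 5′ to 3′ on the coding strand in lower case, with GC boxes (GGGCGG on either strand) in capitals. The Kcnc1 stretch is chr1:106038997-106039246 on the plus strand and ends at the start site, in a place where RefSeq also has an uncharacterized gene. The Kcns1 stretch is chr3:173262433-173262596 on the minus strand and ends 86 bases before the start site of the table.
Kcnc1: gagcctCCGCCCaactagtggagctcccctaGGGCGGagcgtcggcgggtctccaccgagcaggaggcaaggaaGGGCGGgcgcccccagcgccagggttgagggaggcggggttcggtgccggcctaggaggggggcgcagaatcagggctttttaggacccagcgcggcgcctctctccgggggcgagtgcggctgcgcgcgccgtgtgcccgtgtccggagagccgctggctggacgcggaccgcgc
Kcns1: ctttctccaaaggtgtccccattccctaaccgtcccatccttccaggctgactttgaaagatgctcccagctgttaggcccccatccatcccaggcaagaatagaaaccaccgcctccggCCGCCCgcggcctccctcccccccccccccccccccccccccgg
The printed Kcnc1 stretch held 3 GC boxes and the printed Kcns1 stretch 1. Over the whole windows, a GC box was present in Kcnc1, Kcnc4 and Kcns1 and in 33.1% of all promoters. A CCAAT box (CCAAT) was present in Kcnc2 alone of the 4, and in 37.5% of all promoters. The letters of a TATA box (TATAAA), of the cAMP response element (TGACGTCA) and of its short form (TGACG, which the longer motif contains) were in none of the 4 windows, and in 14.2%, 1.83% and 21.2% of all promoters. CpG dinucleotides numbered 36 in Kcnc1, 23 in Kcns1, 19 in Kcnc4 and 5 in Kcnc2, against a median of 7. The Kcnc2 window lay wholly inside the annotated gene, downstream of its 5′ end, so its values do not describe the bases before the gene.

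Levels of different genes were compared per length, in the deposited RPKM, which divide reads by library size and gene length. Kcnc4 was the most abundant of the 6 at 26.7 RPKM over the 12 libraries, before Kcnc2 at 19.2, Kcnc1 at 13.0, Kcns2 at 6.74, Kcnb2 at 2.81 and Kcns1 at 1.67 RPKM. The 3 Kv3 genes thus lay above the Kv2 gene and both Kv9 genes, and this order held in 11 of 12 libraries. In the remaining library, CPA+veh 2, Kcns1 (2.27 RPKM) lay just above Kcnb2 (2.24 RPKM). The ranges over the 12 libraries did not overlap between neighbours in the order of Kcnc4 (24.3 to 28.9 RPKM), Kcnc2 (16.7 to 20.8), Kcnc1 (11.8 to 14.6), Kcns2 (5.43 to 8.17) and Kcnb2 (2.24 to 3.45). Kcnb2 and Kcns1 (1.34 to 2.27 RPKM) overlapped.

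**Figure D1:**
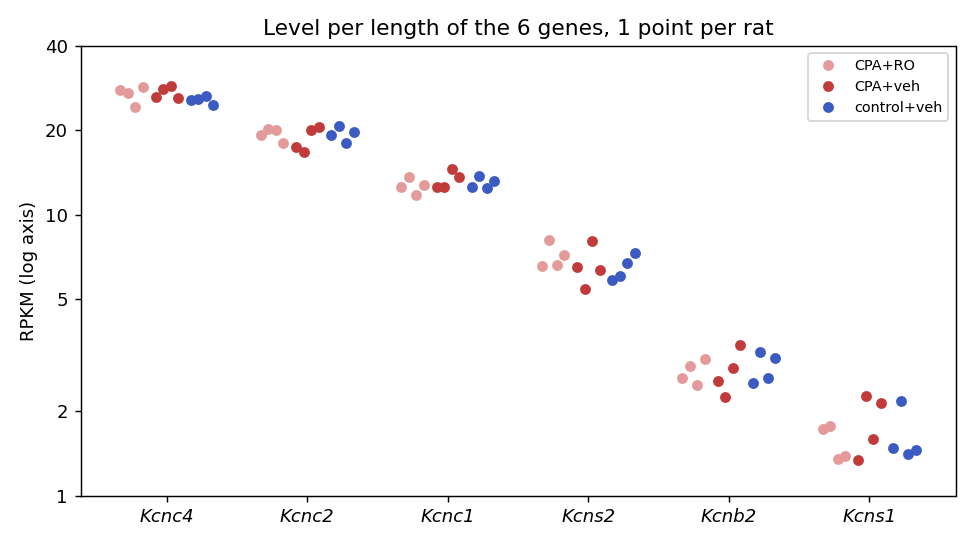
Level per length (RPKM, log axis) of the 6 genes in each rat, 1 point per library, with CPA+RO, CPA+veh and control+veh side by side for each gene. The 3 Kv3 genes lie at 11.8 RPKM and above, Kcns2 between 5.43 and 8.17 RPKM, and Kcnb2 and Kcns1 at 3.45 RPKM and below.

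The first question was whether chronic prefrontal activation left the messages of these channels at another level, with CPA+veh set against control+veh. None of the 6 genes passed the test between these groups. Kcnc4 had the smallest p, with a mean of 78.3 ± 4.19 CPM over the CPA+veh libraries and of 72.0 ± 2.44 CPM over the controls (SD, n = 4 each), and did not pass the test. By edgeR's quasi-likelihood test with Benjamini-Hochberg adjustment over 19094 genes, 0 of 6 had an adjusted p under 0.05, where 0.115% of all genes did (22 genes). At an unadjusted p under 0.05 the count was also 0 of 6, against 9.94% of all genes, and DESeq2 and limma-voom called 0 of 6. The log2 fold changes of the 6 lay above 0 in 4 and had a median of 0.06, beside 0.0066 over all genes tested. All 6 lay above 0 without CPA+veh 1 and 2, with a median of 0.16 beside -0.0022 over all genes tested, and again 0 of 6 had an unadjusted p under 0.05, against 7.85% of all genes.

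The second question was whether RO6958375 after CPA left them at another level, with CPA+RO set against control+veh and against CPA+veh. Against control+veh, 0 of 6 were called by edgeR, where 0.11% of all genes were (21 genes). Against CPA+veh, 0 of 6 were called, where 0% of all genes were (0 genes). At an unadjusted p under 0.05 both counts were 0 of 6, against 5.75% and 4.41% of all genes, and DESeq2 and limma-voom called 0 of 6 in both. The median log2 fold change of the 6 was 0.016 against control+veh, beside 4.3e-05 over all genes tested, and -0.0076 against CPA+veh, beside -0.0066 over all genes tested. The median against CPA+veh was -0.10 without CPA+veh 1 and 2, with 6 of 6 below 0, as were 9867 of 19794 genes tested. Each of the 6 then had an adjusted p of 1.0 by edgeR, and CPA+veh 3 and 4 alone made up that group. In all 18 comparisons of a gene between a pair of groups, the libraries of the groups overlapped, while groups did not overlap for 4.62% of all genes in CPA+veh against control+veh, 5.57% in CPA+RO against control+veh and 1.95% in CPA+RO against CPA+veh. Both comparisons with control+veh share the control libraries, and both comparisons with CPA+veh share the CPA+veh libraries.

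**Figure D2:**
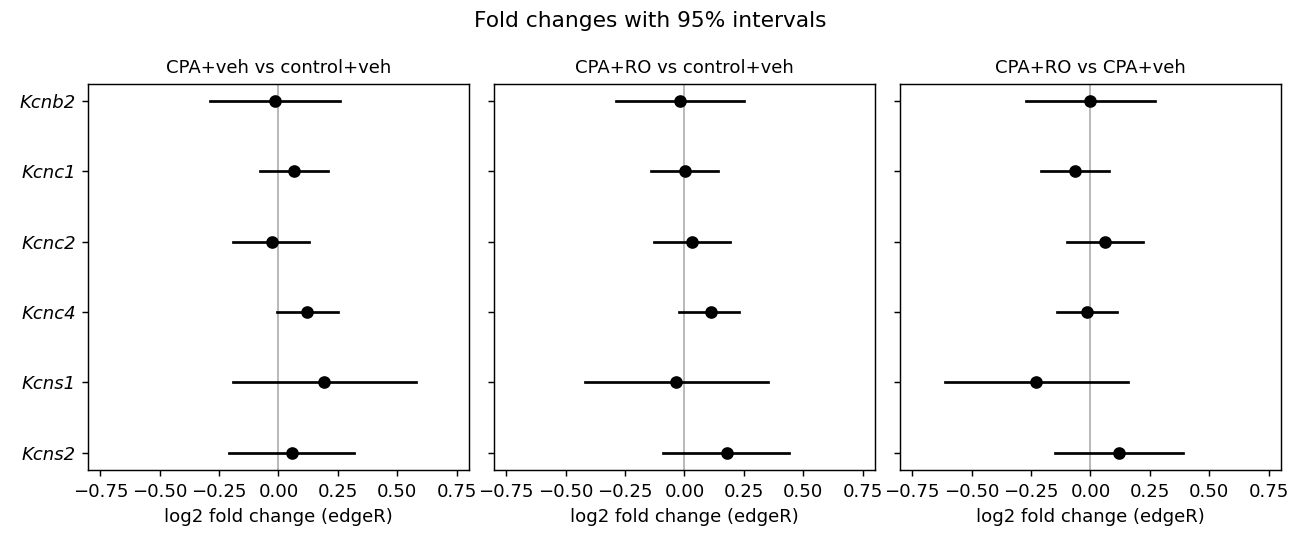
Log2 fold change from edgeR (points) with its 95% interval (lines) for the 6 genes in CPA+veh against control+veh, CPA+RO against control+veh and CPA+RO against CPA+veh. All 18 intervals of the 6 genes include 0, and they are narrowest for Kcnc4, Kcnc1 and Kcnc2 and widest for Kcns1.

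Kcnc1 encodes Kv3.1, the Kv3 subunit best known from Pvalb interneurons. Its level was 60.5, 65.7, 56.6 and 61.0 CPM in CPA+RO, 60.9, 59.3, 70.4 and 64.3 CPM in CPA+veh, and 58.0, 65.2, 58.6 and 61.9 CPM in control+veh. CPA+RO 2 and CPA+veh 3 lay above all controls, CPA+RO 3 lay below them, and the other libraries were interleaved. The log2 fold change of CPA+veh over control+veh was 0.065 (SE 0.066, edgeR adjusted p = 0.762), with a 95% interval that reached from -5.19% to 15.4%. For CPA+RO over control+veh it was 0.00048 (SE 0.066, edgeR adjusted p = 0.999; -9.35% to 10.4%), and for CPA+RO over CPA+veh it was -0.065 (SE 0.066, edgeR adjusted p = 0.881; -13.4% to 5.51%). Without CPA+veh 1 and 2 the log2 fold change of CPA+veh over control+veh was 0.14 (edgeR adjusted p = 0.65) and that of CPA+RO over CPA+veh was -0.14. Without CPA+veh 3, the highest library, these values were 0.015 and -0.014.

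Kcnc2 encodes Kv3.2, which is found in Pvalb interneurons and in part of the somatostatin-positive ones. It had the highest CPM of the 6, at 146, 154, 154 and 138 CPM in CPA+RO, 134, 125, 155 and 154 CPM in CPA+veh, and 141, 156, 134 and 147 CPM in control+veh. The values of CPA+veh formed a low pair, libraries 1 and 2, and a high pair, libraries 3 and 4, and the range of CPA+veh spanned nearly that of all 12 libraries. The log2 fold change was -0.029 (SE 0.074, edgeR adjusted p = 0.914) for CPA+veh over control+veh, 0.031 (SE 0.074, edgeR adjusted p = 0.97) for CPA+RO over control+veh and 0.06 (SE 0.074, edgeR adjusted p = 0.893) for CPA+RO over CPA+veh. The 95% intervals reached from -12.2% to 9.41%, from -8.47% to 14.1% and from -6.61% to 16.4%. Without CPA+veh 1 and 2 the sign turned in both comparisons with CPA+veh, to 0.093 over control+veh and to -0.061 for CPA+RO over CPA+veh. Without CPA+veh 2 alone CPA+RO over CPA+veh gave 0.0044. With the length trend of each library taken out, it was 0.026 for CPA+veh over control+veh (edgeR adjusted p = 0.889).

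Kcnc4 encodes Kv3.4, the fast-inactivating member. It was measured at 80.0, 78.7, 69.7 and 81.7 CPM in CPA+RO, 76.7, 79.1, 83.6 and 73.7 CPM in CPA+veh, and 71.2, 73.3, 74.6 and 69.0 CPM in control+veh. In each of the CPA groups, 3 of 4 libraries lay above all 4 controls and 1 lay among them. The log2 fold change over control+veh was 0.12 in CPA+veh (SE 0.060, unadjusted p = 0.0632 and adjusted p = 0.516 by edgeR) and 0.11 in CPA+RO (SE 0.060, unadjusted p = 0.0959 and adjusted p = 0.88 by edgeR). The 95% intervals, from -0.521% to 18.7% and from -1.47% to 17.6%, both included 0, and both comparisons used the same controls. CPA+RO and CPA+veh differed by -0.014 (SE 0.060, edgeR adjusted p = 0.97; -9.35% to 8.2%). Without CPA+veh 1 and 2 the log2 fold change of CPA+veh over control+veh was 0.13 (edgeR adjusted p = 0.696) and that of CPA+RO over CPA+veh was -0.02. Kcnc4 was the steadiest of the 6, with a within-group SD of 0.079 on the log2 CPM scale, which is smaller than that of all but 12.6% of genes.

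Kcnb2 encodes Kv2.2, one of the Kv2 pore-forming subunits. Its level was 20.8, 23, 19.6 and 24.3 CPM in CPA+RO, 20.5, 17.3, 22.8 and 27.0 CPM in CPA+veh, and 19.2, 25.3, 20.2 and 24.0 CPM in control+veh. Both the lowest and the highest of the 12 values came from CPA+veh. The means were 21.9 ± 2.11 CPM in CPA+RO, 21.9 ± 4.06 CPM in CPA+veh, against 22.2 ± 2.89 CPM in control+veh (SD, 4 rats each). The log2 fold change was -0.016 (SE 0.127, edgeR adjusted p = 0.977) for CPA+veh over control+veh, -0.018 (SE 0.126, edgeR adjusted p = 0.993) for CPA+RO over control+veh and -0.0013 (SE 0.127, edgeR adjusted p = 0.999) for CPA+RO over CPA+veh. The 95% intervals were wider than those of the Kv3 genes, at -18.1% to 19.3%, -18.1% to 19.2% and -17.2% to 20.6%. Kcnb2 has the longest model of the 6 (7844 bases), and within CPA+veh its order of levels (library 2 lowest, then 1, 3 and 4) was that of the length trend (-0.391, -0.193, 0.078 and 0.205). Within control+veh, library 1 likewise had the lowest level and the lowest trend (-0.195). Within CPA+RO the orders differed, since library 3 had the lowest level at a trend of 0.14 and library 4 the highest level at 0.07, while library 1, with the lowest trend (0.001), was second lowest in level. The part of the length trend in these levels was not tested. Without CPA+veh 1 and 2 the log2 fold change of CPA+veh over control+veh was 0.17 (edgeR adjusted p = 0.761), and with the length trend taken out it was 0.037 (edgeR adjusted p = 0.914). For CPA+RO over CPA+veh it was -0.19 without these 2 libraries (edgeR adjusted p = 1.0) and -0.047 with the length trend taken out.

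Kcns1 encodes the Kv9.1 modulatory subunit and was the lowest of the 6. It was found at 6.41, 6.58, 5.0 and 5.14 CPM in CPA+RO, 5.03, 8.27, 5.94 and 7.83 CPM in CPA+veh, and 5.3, 7.92, 5.13 and 5.33 CPM in control+veh. The 3 highest values, above 7.8 CPM, belonged to CPA+veh 2 and 4 and control+veh 2, and the other 9 libraries lay between 5.0 and 6.58 CPM. The log2 fold change was 0.19 (SE 0.18, edgeR adjusted p = 0.742) for CPA+veh over control+veh, -0.035 (SE 0.181, edgeR adjusted p = 0.99) for CPA+RO over control+veh and -0.23 (SE 0.181, edgeR adjusted p = 0.876) for CPA+RO over CPA+veh. The intervals were the widest of the 6, at -12.6% to 49.4%, -25.4% to 27.7% and -34.7% to 11.7%, so that a difference of this size was not resolved at this spread. Without control+veh 2 the log2 fold change of CPA+veh over control+veh was 0.36, and that of CPA+RO over control+veh was 0.14. Without CPA+veh 2 or CPA+veh 4, the high libraries of CPA+veh, the value for CPA+veh over control+veh was 0.081 or 0.11, and that for CPA+RO over CPA+veh was -0.12 or -0.15. The values were 0.31 and -0.35 without CPA+veh 1, a low library, and 0.22 (edgeR adjusted p = 0.826) and -0.25 without CPA+veh 1 and 2 together.

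Kcns2 encodes the Kv9.2 modulatory subunit. It was measured at 11.0, 13.6, 11.0 and 12 CPM in CPA+RO, 11.0, 8.85, 13.5 and 10.4 CPM in CPA+veh, and 9.37, 9.89, 10.9 and 11.9 CPM in control+veh. In CPA+RO, 2 of 4 libraries lay above all controls, and CPA+veh held both a library above and a library below them. The log2 fold change was 0.055 (SE 0.125, edgeR adjusted p = 0.903) for CPA+veh over control+veh, 0.18 (SE 0.125, edgeR adjusted p = 0.9) for CPA+RO over control+veh and 0.12 (SE 0.125, edgeR adjusted p = 0.885) for CPA+RO over CPA+veh. The 95% intervals were -13.8% to 25.1%, -6.2% to 36.0% and -9.7% to 30.9%. Without CPA+veh 3 the value for CPA+veh over control+veh was -0.063, and without CPA+veh 1 and 2 it was 0.19. For CPA+RO over CPA+veh, the value was 0.24 without CPA+veh 3, 0.032 without CPA+veh 2, 0.048 without CPA+RO 2 and -0.0089 without CPA+veh 1 and 2.

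**Figure D3:**
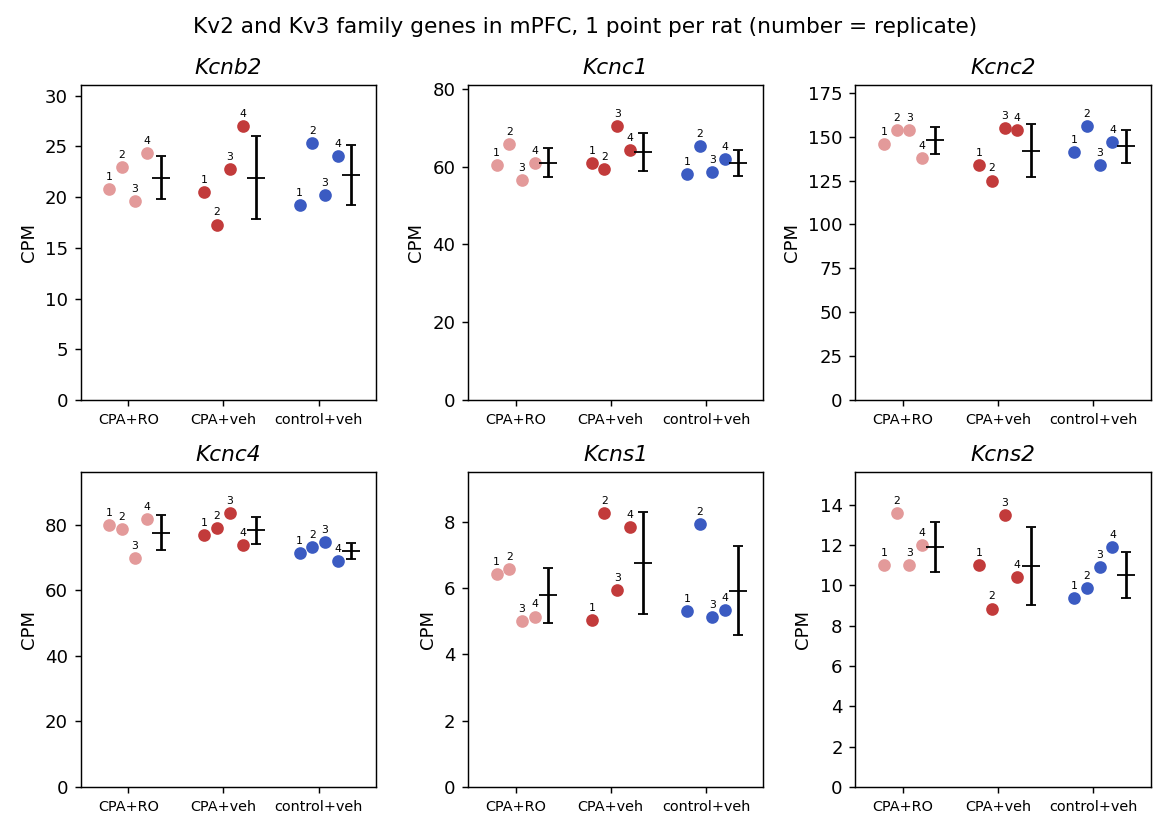
CPM of the 6 genes in each rat, 1 panel per gene, with CPA+RO, CPA+veh and control+veh from left to right. Numbers mark the replicate, and bars give the mean and SD of 4 libraries. The 3 groups overlap in every panel, and the widest relative spread is that of Kcns1, from 5.0 to 8.27 CPM.

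The 6 genes differed in their spread between rats of a group. The within-group SD on the log2 CPM scale was 0.079 for Kcnc4, 0.092 for Kcnc1, 0.11 for Kcnc2, 0.19 for Kcns2, 0.21 for Kcnb2 and 0.29 for Kcns1, beside a median of 0.17 over all genes tested. The Kv3 genes were thus steadier between rats than most genes, since only 12.6% to 29.0% of genes had a smaller SD, and Kcnb2, Kcns1 and Kcns2 were somewhat more variable, at 54.9% to 69.4%. By level, the Kv3 genes lay above 80.4% to 91.8% of the genes tested and the other 3 above 41.8% to 61.8%. The spread was not compared with that of genes of like level, and the part of level in it was not tested.

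Ratios of a pair of these genes within a library do not depend on how libraries are scaled. They can still carry the length trend, since paired genes differ in model length. Kcnb2 has 7844 bases and Kcns1 3676, and Kcnc2 has 7558 and Kcnc1 4745. The part of that trend in the ratios was not tested. The log2 ratio of Kcnc1 to Kcnc2 counts was -1.28 ± 0.11 in CPA+RO, -1.15 ± 0.079 in CPA+veh, against -1.25 ± 0.036 in control+veh (SD, 4 rats each). That of Kcnc4 to Kcnc1 was 0.35 ± 0.078 in CPA+RO, 0.30 ± 0.096 in CPA+veh and 0.24 ± 0.094 in control+veh. Both Kv3 ratios overlapped between groups. For Kcnc1 to Kcnc2, CPA+veh 1, 2 and 3 (-1.14, -1.07 and -1.14) lay above the highest value of control+veh (-1.20) and of CPA+RO (-1.18). CPA+veh 4 lay among the controls at -1.26. The log2 ratio of Kcns2 to Kcns1, the Kv9 genes, was 1.05 ± 0.19 in CPA+RO, 0.71 ± 0.54 in CPA+veh and 0.85 ± 0.38 in control+veh, and that of Kcnb2 to Kcns1 was 1.93 ± 0.24 in CPA+RO, 1.71 ± 0.44 in CPA+veh and 1.92 ± 0.21 in control+veh. The spread of both was largest in CPA+veh, where library 2 had the lowest value of either ratio. For Kcnb2 to Kcns1 it lay at 1.07, apart from the next library, control+veh 2, at 1.67. For Kcns2 to Kcns1 it lay at 0.099, with control+veh 2 at 0.32 and CPA+veh 4 at 0.41 close above it.

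**Figure D4:**
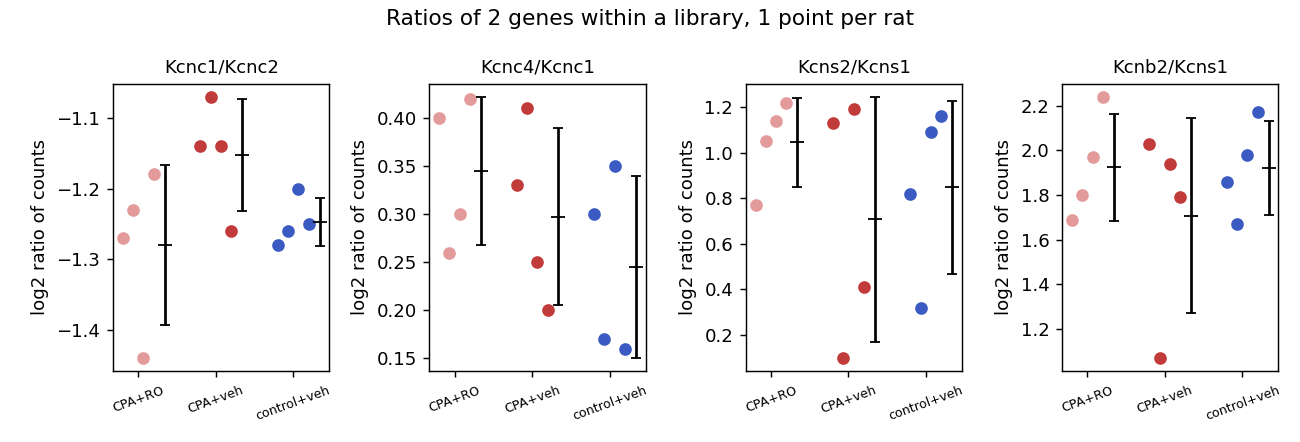
Log2 ratio of the counts of a pair of genes within each library, 1 point per rat, with CPA+RO, CPA+veh and control+veh from left to right; bars give the mean and SD of 4 libraries. Values overlap between groups in all 4 panels, and CPA+veh 2 lies below the others for Kcnb2 to Kcns1 (1.07, the next at 1.67).

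Across the 12 rats, the correlations among the 6 genes ran from -0.35 to 0.65. As a description over libraries that also share depth and length trend, the Pearson correlation of log2 CPM was 0.65 between Kcnb2 and Kcnc2, 0.64 between Kcnb2 and Kcnc1, 0.57 between Kcnc1 and Kcns2 and 0.54 between Kcnc1 and Kcnc2. It was -0.19 between Kcnc2 and Kcnc4 and -0.35 between Kcns1 and Kcns2. When CPA+veh 1 and 2 were left out, these 6 values were 0.41, 0.65, 0.55, 0.58, -0.039 and -0.14. The correlation of Kcns1 with Kcnb2 was 0.66 without these libraries and 0.20 with them, and that of Kcns1 with Kcnc2 was 0.64 without them and 0.13 with them. The genes most like each member over the 12 libraries, by the same measure and with no test, were different for each. Kcnc1 was most like Car10 (0.92), Rassf5 (0.88) and Faslg (0.87, at a mean of only 0.343 CPM), Kcnc2 most like Zfp597 (0.94) and Exoc6b (0.93), and Kcnc4 most like Fscn1 (0.97), Ado (0.96) and Adgrb1 (0.96). Kcnb2 was most like Tfdp2 (0.94), Dnhd1 (0.92) and Akap2 (0.91), Kcns1 most like Ebpl (0.86), Prdm8 (0.84) and Dck (0.83), and Kcns2 most like Gse1 (0.96), Flrt1 (0.91) and Slc7a5 (0.91). These are among the top 3 of 19094 genes for each member, picked for a high value.

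Since Kv3 genes are used as marks of fast-spiking interneurons, each gene was set against Pvalb, the calcium-binding protein that defines these cells. Pvalb was measured at 34.3, 33.0, 28.8 and 33.5 CPM in CPA+RO, 38.2, 39.3, 32.2 and 37.2 CPM in CPA+veh, and 32.6, 36.2, 24.6 and 34.0 CPM in control+veh. Of the CPA+veh libraries, 3 of 4 lay above all controls, and the log2 fold change of 0.21 did not pass the test (SE 0.106, edgeR adjusted p = 0.524). Over 12 rats the correlation with Pvalb did not pass the test for the 3 Kv3 genes, at r = 0.29 for Kcnc1, -0.093 for Kcnc2 and 0.20 for Kcnc4 (rho = 0.20, -0.22 and 0.10; adjusted permutation p from 0.731 to 0.777 for r, and 0.632 to 0.75 for rho, over 6 genes). The highest was that of Kcns1, at r = 0.58 (two-sided permutation p = 0.0442, adjusted over the 6 genes 0.265) and rho = 0.55 (permutation p = 0.0664, adjusted 0.398), which did not pass the adjusted threshold. Kcnb2 had r = 0.16 and rho = 0.20 (adjusted permutation p = 0.733 and 0.632), and Kcns2 had r = -0.29 and rho = -0.41 (adjusted permutation p = 0.731 and 0.579). Without the 2 rats farthest from the median of Pvalb, CPA+RO 3 and control+veh 3, r was 0.50 for Kcns1, -0.29 for Kcnc1, -0.49 for Kcnc2, -0.11 for Kcnc4, -0.21 for Kcnb2 and -0.62 for Kcns2. The values of Kcnc1, Kcnc4 and Kcnb2 thus turned negative without these 2 rats, which had the lowest Pvalb levels. With group means removed, r was 0.50 for Kcns1 and -0.34 to 0.23 for the other 5 genes. With the length trend taken out it was 0.58 for Kcns1 and 0.54 for Kcnb2 (permutation p = 0.0376 and 0.0571, both 0.171 adjusted over the 6 genes), 0.48 for Kcnc1 (permutation p = 0.118, adjusted 0.237), 0.28 for Kcnc2, 0.16 for Kcnc4 and -0.088 for Kcns2 (adjusted permutation p = 0.611, 0.761 and 0.782). The values depended on CPA+veh 1 and 2, which had the 2 highest Pvalb levels. Without them, over 10 rats and as a description, r was 0.68 for Kcns1, 0.68 for Kcnb2, 0.53 for Kcnc2, 0.48 for Kcnc1, 0.10 for Kcnc4 and -0.077 for Kcns2.

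**Figure D5:**
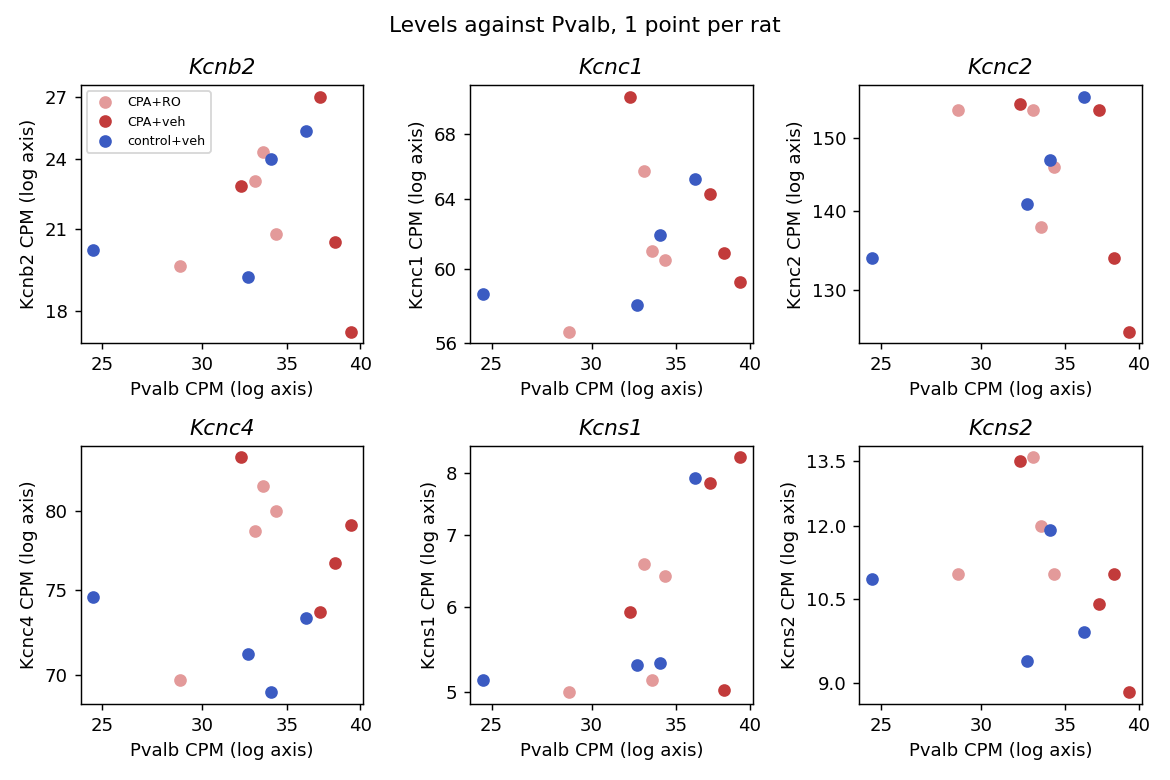
CPM of each of the 6 genes (vertical, log axis) against CPM of Pvalb (horizontal, log axis) in the 12 rats, 1 point per library, in CPA+RO, CPA+veh and control+veh. The Kv3 genes show r of -0.093 to 0.29 over all 12 rats, and Kcns1 shows 0.58, with its 3 values above 7.8 CPM at Pvalb levels of 36.2 to 39.3 CPM.

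The remaining 5 genes of the fast-spiking list (Syt2, Cox6a2, Erbb4, Lhx6 and Sox6) are markers of the same interneurons or of their lineage. With Pvalb, 6 of 6 had a log2 fold change above 0 in CPA+veh over control+veh, with a median of 0.17. In that comparison 0 of 6 passed the edgeR test, and 1 of 6 had an unadjusted p under 0.05, against 9.94% of all genes. This gene was Syt2, a synaptotagmin of their terminals (log2 fold change 0.38, unadjusted p = 0.0439, adjusted p = 0.49 by edgeR). Also 6 of 6 lay above 0 in CPA+RO over control+veh (median 0.13) and 2 of 6 in CPA+RO over CPA+veh (median -0.056). An unadjusted p under 0.05 was found for 0 of 6 in both, against 5.75% and 4.41% of all genes. When CPA+veh 1 and 2 were left out, 5 of 6 lay above 0 in CPA+veh over control+veh, with a median of 0.14. Then 2 of 6 had an unadjusted p under 0.05 by edgeR, against 7.85% of all genes. The summed level of the 6 markers was 104 to 111 CPM in CPA+RO, 91.3 to 119 CPM in CPA+veh and 91.2 to 116 CPM in control+veh. Its part in the values of Kcnc1 and Kcnc2 was not tested.

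The genes of 8 further silent subunits that assemble with Kv2 channels (Kcns3, Kcnf1, Kcng1, Kcng2, Kcng3, Kcng4, Kcnv1 and Kcnv2) were set beside the 6. Of these 8, 0 were called by edgeR, DESeq2 or limma-voom in any of the 3 comparisons, and 0 had an unadjusted p under 0.05 by edgeR. The share of all genes at that level was 9.94% in CPA+veh over control+veh, 5.75% in CPA+RO over control+veh and 4.41% in CPA+RO over CPA+veh. Log2 fold changes lay above 0 in 7 of 8 for CPA+veh over control+veh (median 0.046), 7 of 8 for CPA+RO over control+veh (median 0.15) and 6 of 8 for CPA+RO over CPA+veh (median 0.08). The medians over all genes tested were 0.0066, 4.3e-05 and -0.0066 in these comparisons. Kcnf1 was the most abundant of the 8 per length, at a mean of 62.5 RPKM in CPA+RO, 58.7 RPKM in CPA+veh and 58.2 RPKM in control+veh. Kcns3, the third Kv9 gene, was at 11.9 ± 0.537 CPM in CPA+RO, 12.3 ± 0.705 CPM in CPA+veh and 11.9 ± 1.67 CPM in control+veh (SD, 4 rats each). Kcng1 had the largest log2 fold change of the 8 in CPA+RO over CPA+veh on the upper side, at 0.22 (SE 0.109, edgeR adjusted p = 0.876), and Kcng4 the lowest, at -0.29 (SE 0.236, edgeR adjusted p = 0.876).

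Of 10 genes for proteins that bind these channels, 9 were tested and 0 were called by any of the 3 tools in any comparison. Amigo1, a membrane protein that travels with Kv2 channels, was among the steadiest at a mean of 136 CPM in CPA+RO, 136 CPM in CPA+veh and 134 CPM in control+veh. At an unadjusted p under 0.05 by edgeR, the count was 0 of 9 in both comparisons with control+veh (9.94% of all genes for CPA+veh, 5.75% for CPA+RO). It was 1 of 9 in CPA+RO over CPA+veh, against 4.41% of all genes. This gene was Kcne5, a small regulatory subunit, at the low mean of 1.33 CPM in CPA+RO and 2.03 CPM in CPA+veh (log2 fold change -0.61, SE 0.219, unadjusted p = 0.0151, adjusted p = 0.876 by edgeR).

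The markers of the other cells in the tissue were described beside these genes, and edgeR and limma-voom called 0 genes of any list in any comparison, with DESeq2 calls among choroid plexus genes only. In CPA+veh over control+veh, 5 of 5 oligodendrocyte markers (Mbp, Mog, Mag, Mobp and Cnp, genes of the myelin sheath) lay above 0 (median log2 fold change 0.31), and all 5 had an unadjusted p under 0.05, against 9.94% of all genes. The 6 endothelial markers (Pecam1, Emcn, Cldn5, Flt1, Tek and Cdh5, genes of the vessel wall) lay below 0 (median -0.40, 3 with an unadjusted p under 0.05). These medians rested on CPA+veh 1 and 2. Without them the oligodendrocyte median was 0.048 and the endothelial median -0.039, with 0 of 5 and 1 of 6 genes at an unadjusted p under 0.05, against 7.85% of all genes. The medians for CPA+RO over CPA+veh were then -0.0082 for oligodendrocytes and -0.0014 for endothelium. Medians for CPA+veh over control+veh with all libraries were 0.048 for general GABA neuron markers (1 of 6 with an unadjusted p under 0.05), 0.19 for other interneurons (2 of 6), 0.21 for excitatory neurons (4 of 5), -0.0091 for cortical layers (1 of 6), 0.17 for astrocytes (0 of 6), 0.12 for microglia (1 of 6), 0.10 for striatal neurons (1 of 6) and -0.073 for the 3 choroid plexus genes tested (1 of 3). When CPA+veh 1 and 2 were left out, those of astrocytes and microglia were 0.03 and -0.071, and those of other interneurons and excitatory neurons were 0.095 and 0.15. Those of general GABA neurons and striatal neurons were then 0.07 and 0.025. The medians of cortical layers and choroid plexus turned sign, to 0.037 and 0.23. The choroid plexus gene that DESeq2 called in both comparisons with control+veh was Ttr, a secreted carrier of thyroid hormone, at a mean of 1.04 ± 0.41 CPM in CPA+RO and 1.18 ± 0.254 CPM in CPA+veh, against 0.349 ± 0.0844 CPM in control+veh (SD, 4 rats each). All 8 CPA libraries lay above all controls for Ttr, but it did not pass the edgeR test, with a log2 fold change of 1.58 in CPA+RO (SE 0.317, edgeR adjusted p = 0.103) and 1.76 in CPA+veh (SE 0.317, edgeR adjusted p = 0.0571). Kl and Prlr, the other choroid plexus genes tested, did not share this rise. In CPA+veh over control+veh their log2 fold changes were -0.68 and -0.073, and in CPA+RO over control+veh -0.59 and 0.026. Kl was low (0.178 CPM in control+veh), with a 95% interval of -1.93 to 0.58 in CPA+veh over control+veh. Folr1, Clic6 and Otx2 did not pass the filter and were not tested. Their means were 0.0904, 0.0833 and 0.0109 CPM in CPA+RO and 0.0437, 0.0801 and 0.00383 CPM in CPA+veh. In control+veh they were 0.0136, 0.0465 and 0.0104 CPM, so that Folr1 and Clic6 were higher in both CPA groups. In CPA+RO over control+veh the medians lay between -0.096 for endothelium and 0.17 for excitatory neurons, and in CPA+RO over CPA+veh between -0.25 for oligodendrocytes and 0.20 for endothelium. An unadjusted p under 0.05 was found in CPA+RO over control+veh (5.75% of all genes) for 2 genes each of the general GABA, other interneuron and excitatory lists and for 1 each of the cortical layer, endothelium, striatal and choroid plexus lists, and in CPA+RO over CPA+veh (4.41% of all genes) for 4 oligodendrocyte genes. The part of the oligodendrocyte and endothelial values in those of the 6 channel genes was not tested.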

How the data were processed

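Raw counts per gene and a table of RPKM were deposited by the authors for 12 libraries (TruSeq Stranded mRNA kit, HiSeq4000). The tools named in the submitters' processing notes are STAR, SAMtools, bcl2fastq and FastQC, and the genome is rn6 (Rnor_6.0). Not given in the sources used here are the counting tool, the annotation, the use of strand and the treatment of reads that match several genes, so reads shared between related channel genes could be split or lost. Of deposited counts from 10 to 99, 87.5% were even, and whether a count stands for a fragment or for a read end was not stated. RPKM deposited by the authors were used for levels between genes and for alternatives.

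Counts were fitted with edgeR 4.0.16 in R 4.3.3 (glmQLFit and glmQLFTest, TMM scaling, filterByExpr), with group as the only term and all 12 libraries in 1 fit; adjusted p is Benjamini-Hochberg over 19094 genes, with a threshold of 0.05. CPM are TMM-scaled, and log2 CPM used a prior count of 2. Limma 3.58.1 (voom, with and without sample quality weights, and log2 RPKM with a pseudocount of 0.1 or 1 and a minimum mean RPKM of 0.1) and DESeq2 1.42.0 were alternatives. The length correction took a loess trend (span 0.3) of each library's deviations on gene length into the offset. Gene lengths were derived from counts and RPKM (20604 genes). Correlations with Pvalb used 100000 permutations, two-sided. The fits were tested on simulated data. Each library is a separate rat, as far as the labels say. The p-values of fold changes set a difference between groups against the spread between these rats. That spread can also hold slice day and cohort, which could not be entered.

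The members, though found by symbol alone, and the 13 lists beside them were chosen with earlier results of these data known. The rule for names was all 6 members, the genes of lists of 10 or fewer and the 3 genes most correlated with each member, without predicted or unnamed genes. Of the lists for cell types, those for fast-spiking interneurons, oligodendrocytes and endothelium are named. Of the rest, Ttr was chosen after its values were seen, and Kl, Prlr, Folr1, Clic6 and Otx2 are named beside it. The others are given by counts and medians. A few genes are not reported here. Marker medians and correlations without CPA+veh 1 and 2 were added after seeing the data. Names and promoters were matched by gene ID to RefSeq (GRCr8), in which 23199 of 29009 IDs and 6 of 6 members were found. Since the counts were made on another build, only promoter coordinates of GRCr8 are given. RefSeq places an uncharacterized gene over Kcnb2, Kcnc1 and Kcnc4, 1 each, and none of the 3 is in the counts table. Protein sequences were not analysed here.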

Additional observations from a re-analysis of the deposited data

Results flagged for a closer look

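Among 21 groups of 4 libraries (the 6 genes and Pvalb in 3 groups each), 1 held a library whose distance from its nearest neighbour was above Dixon's 95% critical value as a share of the group's whole range, which chance gives in about 1 in 20 groups. Kcns1 was at 7.92 CPM in control+veh 2, the highest of its group, with 0.929 of the range between it and the next library.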

How the results depend on the processing

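None of the 6 genes passed the threshold under any alternative run: over 27 alternatives in each of 3 comparisons, 0 of 486 values of the 6 genes had an adjusted p under 0.05 (smallest 0.27), and 59 had the other sign, in 11 of 18 gene comparisons. The cause of these turns of sign was not tested. Each gene had at least 320 counts in a library, and 4 rats per group and the spread between them limit the precision. The analysis of protein sequences was not run.

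The number of genes called in CPA+veh against control+veh was 22, and 115 with DESeq2, 5 with voom and sample quality weights, 12 with a CPM of at least 1 in 4 libraries, 14 without CPA+veh 1 and 2, and 18 to 26 without any 1 library. In CPA+RO against control+veh it was 21, and 82 with DESeq2, 33 with quality weights, 48 with no filter, 13 with the CPM minimum, 32 with only the 2 groups in the fit, and 15 to 27 without any 1 library. In CPA+RO against CPA+veh it was 0, and 1 with only the 2 groups in the fit.

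Same-numbered libraries did not deviate together (r from -0.106 to 0.098), so the numbers were not taken as pairs. With a replicate block 17, 21 and 0 genes were called in the 3 comparisons, and Kcnb2 in CPA+RO over CPA+veh was 0.0022. With length correction and replicate block, Kcnb2 and Kcnc2 in CPA+veh over control+veh were 0.037 and 0.026, and Kcns1 in CPA+RO over control+veh was 0.0031.

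The log2 fold changes with the other sign were, for CPA+veh over control+veh, Kcnb2 at 0.032 and Kcnc2 at 0.017 with quality weights, 0.037 and 0.026 with length correction, and 0.17 and 0.093 without CPA+veh 1 and 2. For CPA+RO over control+veh, Kcnc1 was -0.0083 with upper quartile scaling, -0.0012 with no filter, -0.0058 with the CPM minimum, -0.00053 with only the 2 groups, and -0.034, -0.031 and -0.034 on log2 RPKM (pseudocount 0.1, pseudocount 1 and no filter), on which Kcnc2 was -0.0018 each time. For CPA+RO over CPA+veh, Kcnb2 was 0.0017 with RLE scaling, 0.0016 with DESeq2, 0.017 with voom, 0.001 with the CPM minimum, 0.0016 with only the 2 groups, and 0.0058, 0.0023 and 0.0058 on log2 RPKM. Without CPA+veh 1 and 2, Kcnc2 was -0.061 and Kcns2 -0.0089 in that comparison.

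Without any 1 library, the values for CPA+veh over control+veh were -0.14 to 0.08 for Kcnb2, 0.015 to 0.097 for Kcnc1, -0.075 to 0.027 for Kcnc2, 0.088 to 0.14 for Kcnc4, 0.081 to 0.36 for Kcns1 and -0.063 to 0.14 for Kcns2. Those for CPA+RO over control+veh were -0.081 to 0.05 for Kcnb2, -0.037 to 0.034 for Kcnc1, -0.0018 to 0.069 for Kcnc2, 0.081 to 0.15 for Kcnc4, -0.10 to 0.14 for Kcns1 and 0.10 to 0.24 for Kcns2. Those for CPA+RO over CPA+veh were -0.098 to 0.12 for Kcnb2, -0.10 to -0.014 for Kcnc1, 0.0044 to 0.11 for Kcnc2, -0.04 to 0.033 for Kcnc4, -0.35 to -0.12 for Kcns1 and 0.032 to 0.24 for Kcns2. Of the correlations with Pvalb, r without the 2 farthest rats was -0.21 for Kcnb2, -0.29 for Kcnc1 and -0.11 for Kcnc4, r with group means removed was 0.02 for Kcnc2 and -0.05 for Kcnc4, and r for Kcnc2 was 0.28 after length correction and 0.53 without CPA+veh 1 and 2, a choice made after seeing the data.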
